A study of Arabidopsis thaliana and Cardamine hirsuta and Capsella rubella with 102 samples.

Results

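The genes described here are 217 genes of *Eutrema salsugineum*, the saltwater cress, whose transcripts were high 1 h after the bacterial peptide flg22 was given and had not returned to the mock level at 9 h and 24 h. They are 217 of the 26351 genes with a row in the count table of this species. They were chosen on the same libraries that are described below. For each gene and time point, L is the log2 ratio of the mean CPM with flg22 plus 1 to the mean CPM with mock plus 1, where CPM is the count of a gene per 1000000 reads counted on genes in that library. A member had L of at least 2 at 1 h, at least 1 at 9 h and at least 1 at 24 h, and a mean of at least 10 reads over the 18 libraries. Of the 19834 genes with that mean, 736 had L of at least 2 at 1 h. The other 519 of these genes were let go by the later conditions: 390 had L below 1 at both 9 h and 24 h, 72 had it only at 24 h and 57 only at 9 h. Because the flg22 and mock libraries of *E. salsugineum* chose the members, everything said of them in this species is a description. Tests that the choice of members does not enter are those of their 1:1 orthologs in the other species and accessions. All but 14 of the 158 listed orthologs, however, came from lists that the study had selected for response in these same libraries.

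Whole 12-day-old seedlings of *E. salsugineum* (accession Shandong), *Arabidopsis thaliana* Col-0, *Capsella rubella* and *Cardamine hirsuta* received flg22 at 1 µM or mock in liquid medium, and RNA was taken at 1, 9 and 24 h. Seedlings of the *A. thaliana* accessions Kon, Can-0, No-0, Gy-0 and Kn-0 were sampled at 1 h only. Every group of genotype, treatment and time had 3 libraries from 3 independent experiments in which flg22 and mock were applied side by side, and each library held the pooled seedlings of 3 wells. All plants were wild-type accessions, and 1 accession stands for each species other than *A. thaliana*.

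Plants sense flg22, a stretch of bacterial flagellin, through the receptor kinase FLS2 at the cell surface. Binding sets off calcium influx, an oxidative burst and MAP kinase cascades, and within an hour transcription is changed by WRKY, MYB, ERF and zinc finger factors. The resulting state is called pattern-triggered immunity (PTI). Its early transcripts commonly encode receptors, kinases, phosphatases and ubiquitin ligases that set the strength of the signal, while its late transcripts include secreted peroxidases, chitinases, protease inhibitors and enzymes that act on the cell wall.

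The 18 *E. salsugineum* libraries held between 19327936 and 34665370 reads on genes. One library stood apart in what concerns the members: in the mock library of replicate 2 at 1 h their summed CPM was 6721, against 2407 and 2823 in the mock libraries of replicates 1 and 3. The same choice of genes made without replicate 2 gave 201 genes, 189 of them members. FLS2 itself (Thhalv10000746) averaged 38.1 CPM with flg22 and 25.3 CPM with mock at 1 h, 42.8 and 55.1 CPM at 9 h, and 20.2 and 23.4 CPM at 24 h, and is no member. Photosystem genes that mark green tissue (*PSB27*, *PSBP1*, *PSAO*, *LHCB6*, *LHCA6*) and root genes (*FRO2*, *RCI3*, *PER2*, *EXPA7*) were all detected, as whole seedlings would give. The summed CPM of the 5 leaf genes ranged from 2029 to 4584 with flg22 and from 2958 to 6153 with mock at 1 h, from 1509 to 2517 and from 2227 to 3095 at 9 h, and from 1844 to 5055 and from 2057 to 3535 at 24 h. None of the 5 passed the test at any time, and of the 4 root genes 1 was downregulated at 24 h. Their part in the values of the members was not tested. RNA came from whole seedlings, so fewer cells of a type and less RNA per cell cannot be told apart.

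The members as a set took a larger share of the reads with flg22 than with mock in every replicate at every time. Their summed CPM was 47229, 57379 and 45461 with flg22 at 1 h, against 2407, 6721 and 2823 with mock. At 9 h it was 17399, 28160 and 20085 with flg22, against 6729, 8023 and 5387 with mock, and at 24 h 14105, 21715 and 15983 with flg22, against 4006, 5112 and 4743 with mock. The sums with flg22 thus lay above those with mock at every time, with the widest gap at 1 h, and the median member had 106, 31.8 and 22.4 CPM with flg22 at 1, 9 and 24 h, against 4.76, 7.86 and 5.54 CPM with mock. The rule for L in part fixes this order and the time of the widest gap. All 217 members had L above 0 in each of the 3 replicates at each time. Every flg22 library was above every mock library in 216 members at 1 h, 211 at 9 h and 213 at 24 h. The mock level was itself not constant, since 156 members had a higher mean CPM with mock at 9 h than at 1 h. In the edgeR test (a gene is called upregulated at an adjusted p below 0.01 and a log2 fold change above 1), 217, 191 and 178 members were upregulated at 1, 9 and 24 h, beside 10.7%, 2.48% and 2.83% of all genes tested, and nothing is read from these counts because the same contrasts chose the members. The count at 9 h was 115 if replicate 2 was left out and 69 if replicate 3 was, and that at 24 h was 109 if replicate 2 was left out. Calls over all genes fell in the same settings, from 492 to 196 and 120 at 9 h and from 562 to 225 at 24 h.

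**Figure D1:**
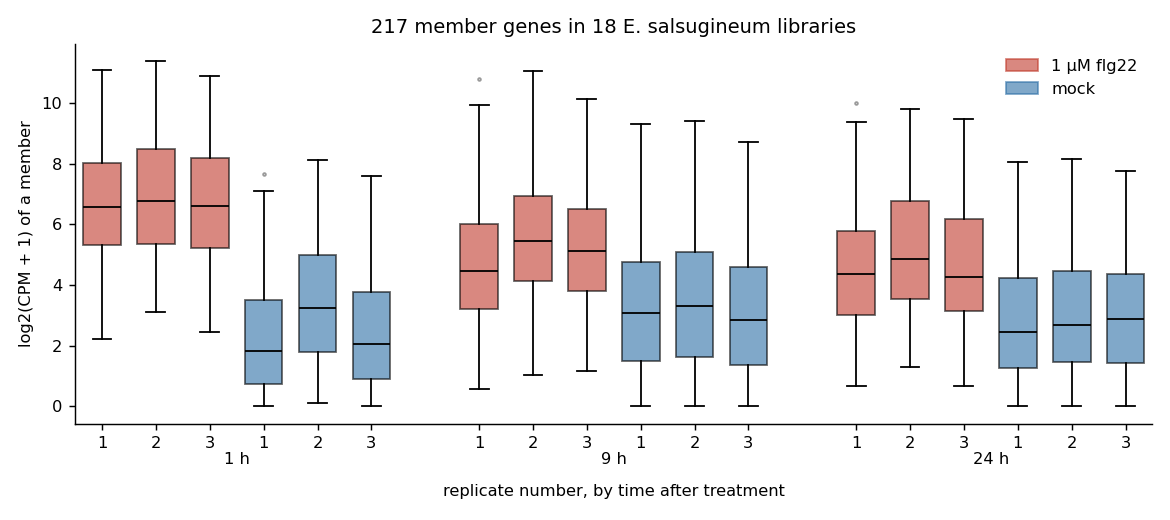
Box plots of log2(CPM + 1) of the 217 members in each of the 18 *E. salsugineum* libraries, with flg22 (red) left of mock (blue) at 1, 9 and 24 h and the replicate number below each box. Boxes span the quartiles with the median as a line, whiskers reach 1.5 times the quartile range and dots are genes beyond them. All flg22 boxes have a higher median than the mock boxes of their time, and the mock library of replicate 2 at 1 h lies above the other mock libraries of that time.

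The median L of the members was 3.62 at 1 h (range 2.01 to 8.71), 1.66 at 9 h (1.00 to 5.28) and 1.55 at 24 h (1.02 to 5.61). The other 519 genes with L of at least 2 at 1 h had medians of 2.62, 0.55 and 0.43, and all genes with at least 10 reads had −0.28, −0.06 and −0.09. The late limits of the rule in part set the gap between the members and the 519 at 9 h and 24 h. The negative median of all genes at 1 h came with scaling by total reads, and it was −0.08 in the edgeR fit, whose TMM scaling uses the bulk of the genes. For most members the late values were a fraction of the early one: L was highest at 1 h in 205 members, of which 117 went on to a lower L at 24 h than at 9 h and 88 had a higher L at 24 h than at 9 h. The rule set a higher minimum of L at 1 h (2) than at 9 h and 24 h (1), so a high early value is in part built into the choice. In 4 members L was highest at 9 h and in 8 at 24 h. L at 24 h was at least 2 in 64 members and at least 3 in 16, and 103 members had it below 1.5. Many members therefore sat close to the limit, 33 of them with L between 1 and 1.2 at 24 h.

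**Figure D2:**
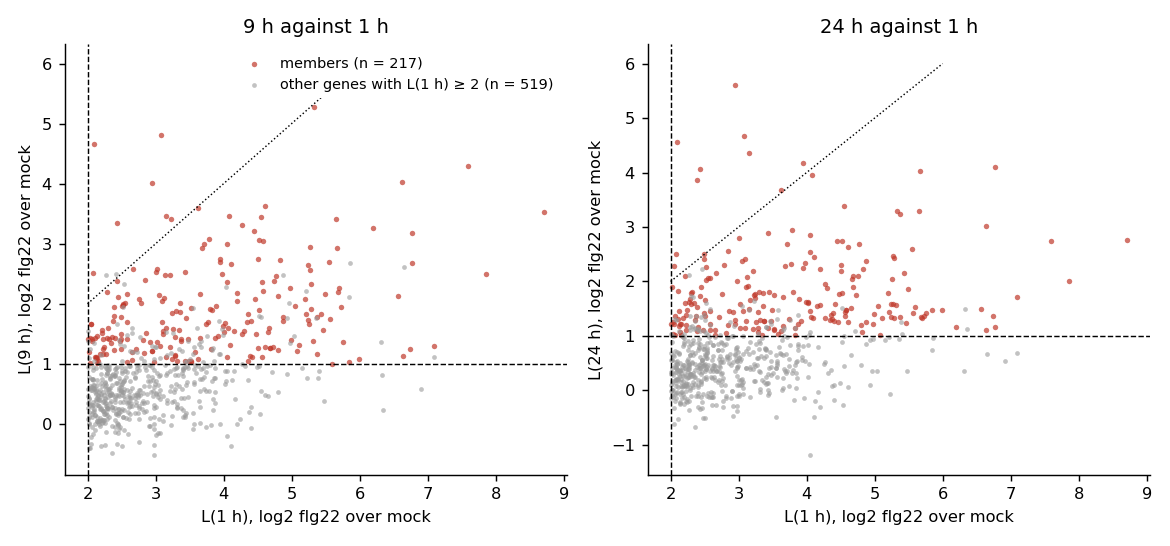
L at 9 h (left) and at 24 h (right) against L at 1 h for the 217 members (red) and the other 519 genes with L of at least 2 at 1 h (grey). Each point is a gene, dashed lines are the limits of the rule and the dotted line marks equal values. Most members lie below the dotted line, and 11 lie above it at 24 h.

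The genes on either side of the limits show how fine the choice was. Just inside at 24 h were *ATL6* with L of 1.02 (37.1 CPM with flg22 and 17.8 CPM with mock), *PSD2* with 1.02 (20.5 and 9.63 CPM) and a gene with no listed ortholog, also with 1.02 (23.2 and 10.9 CPM). Just outside were AT1G22810 with 0.98 (1.43 and 0.232 CPM), a phospholipase gene with 0.996 (1.56 and 0.284 CPM) and an unlisted gene with 0.99 (1.07 and 0.0367 CPM). At 9 h the receptor kinase gene *IOS1* was just inside with 1.01 (438 CPM with flg22 and 217 CPM with mock), and AT5G57480 just outside with 0.98 (79.4 and 39.8 CPM). The 3 genes outside the 24 h limit were of low level, where adding 1 CPM shrinks L. With a pseudocount of 0.1 CPM in place of 1 the same rule took 309 genes.

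The 8 members with the highest L at 24 h, among those with a mean of at least 10 mock reads at each time, were mostly genes whose L was higher at 24 h than at 1 h. AT2G44370, for a protein with a cysteine- and histidine-rich C1 domain, led with L of 2.94, 4.01 and 5.61 at 1, 9 and 24 h. It had 67.9, 108 and 81.7 CPM with flg22 against 8.90, 12.2 and 9.73 CPM with mock at 1 h, and 118, 271 and 133 CPM with flg22 against 3.09, 3.41 and 1.28 CPM with mock at 24 h. The flg22 values were high in all 3 replicates and apart from mock, and the mock values were lower at 24 h than at 1 h. AT4G20860, which encodes a berberine family protein, a group of secreted oxidases, had 23.2, 37.5 and 28.1 CPM with flg22 against 1.40, 3.58 and 2.90 CPM with mock at 1 h. At 9 h it had 47.3, 193 and 149 CPM with flg22 against 4.09, 3.92 and 3.05 CPM with mock, and at 24 h 41.3, 112 and 78.0 CPM with flg22 against 1.60, 2.79 and 1.82 CPM with mock. Replicate 1 was the lowest of the flg22 libraries at each time, but none overlapped mock (L 3.08, 4.80 and 4.67). AT2G45220, a pectin methylesterase gene of the cell wall, had 58.7, 108 and 84.4 CPM with flg22 against 9.73, 12.1 and 22.3 CPM with mock at 1 h and 137, 367 and 309.6 CPM with flg22 against 8.72, 21.1 and 16.2 CPM with mock at 24 h. With L values of 2.43, 3.35 and 4.06 it was 1 of 3 members whose L was higher at each later time. AT2G23960, of the glutamine amidotransferase-like family, had L of 3.95, 2.69 and 4.17, with 20.5, 42.6 and 40.1 CPM with flg22 against 1.03, 1.54 and 0.338 CPM with mock at 24 h. AT3G19010, of the 2-oxoglutarate- and iron-dependent oxygenases, had L of 4.07, 3.47 and 3.95, with 67.4, 152 and 95.1 CPM with flg22 against 4.90, 7.12 and 5.47 CPM with mock at 24 h.

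Among these 8 members, 3 had no listed ortholog, like 59 of the 217 members, and no name is known for them here. Thhalv10007895 had 4.27, 10.7 and 4.50 CPM with flg22 against 0.155, 1.99 and 0.111 CPM with mock at 1 h, where it only just met the rule. It had 37.0, 118 and 39.4 CPM with flg22 against 2.14, 2.11 and 0.519 CPM with mock at 9 h, and 40.9, 71.8 and 17.3 CPM with flg22 against 1.60, 0.514 and 0.506 CPM with mock at 24 h. The spread among its flg22 libraries was wide, yet the lowest was above the highest mock library at 9 h and 24 h. Thhalv10007945 responded early instead, with 677, 754 and 639.7 CPM with flg22 against 1.71, 11.4 and 2.93 CPM with mock at 1 h, and kept 73.8, 90.8 and 65.4 CPM with flg22 against 1.89, 4.37 and 4.25 CPM with mock at 24 h. The third unnamed gene had L of 5.67, 2.92 and 4.02.

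The 8 members with the highest CPM after 24 h of flg22 (a share of reads, not corrected for gene length) were mainly genes of secreted or metabolic proteins. *UCC2*, for uclacyanin, a copper protein of the cell surface, had 981, 1207 and 799.6 CPM with flg22 against 202, 259 and 181 CPM with mock at 1 h and 1035, 873 and 476 CPM with flg22 against 263, 145 and 148 CPM with mock at 24 h. *PRX34*, for a peroxidase that feeds the oxidative burst in *A. thaliana*, had 529.6, 785 and 485 CPM with flg22 against 73.4, 165 and 79.4 CPM with mock at 1 h, 499, 821 and 524 CPM with flg22 against 278, 236 and 171 CPM with mock at 9 h and 427, 851 and 672 CPM with flg22 against 119, 126 and 119.6 CPM with mock at 24 h. Both genes had a high mock level, and at the times given every flg22 library was above every mock library. *GAD4*, for a glutamate decarboxylase that makes GABA, had 2195, 2673 and 1907 CPM with flg22 against 38.6, 216 and 51.6 CPM with mock at 1 h and 457, 842 and 535 CPM with flg22 against 93.4, 103 and 75.2 CPM with mock at 24 h. AT2G38870, for a protease inhibitor of the potato inhibitor type, had 589, 832 and 545 CPM with flg22 against 46.6, 121 and 74.6 CPM with mock at 1 h and 509, 559 and 441 CPM with flg22 against 65.6, 76.4 and 71.1 CPM with mock at 24 h. The mock value of replicate 2 at 1 h stood above the others in *PRX34*, *GAD4* and AT2G38870, as it did in the sum over all members. *BBE7*, a berberine family gene, and the chitinase gene AT4G01700 had L of 2.28 and 2.37 at 24 h, AT4G34180 of the cyclase family had 1.68 and *IOS1* had 1.03. *IOS1*, whose receptor kinase associates with FLS2 in *A. thaliana*, had 249, 635 and 539 CPM with flg22 against 203, 284 and 209 CPM with mock at 24 h, so that its lowest flg22 library lay below its highest mock library.

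**Figure D3:**
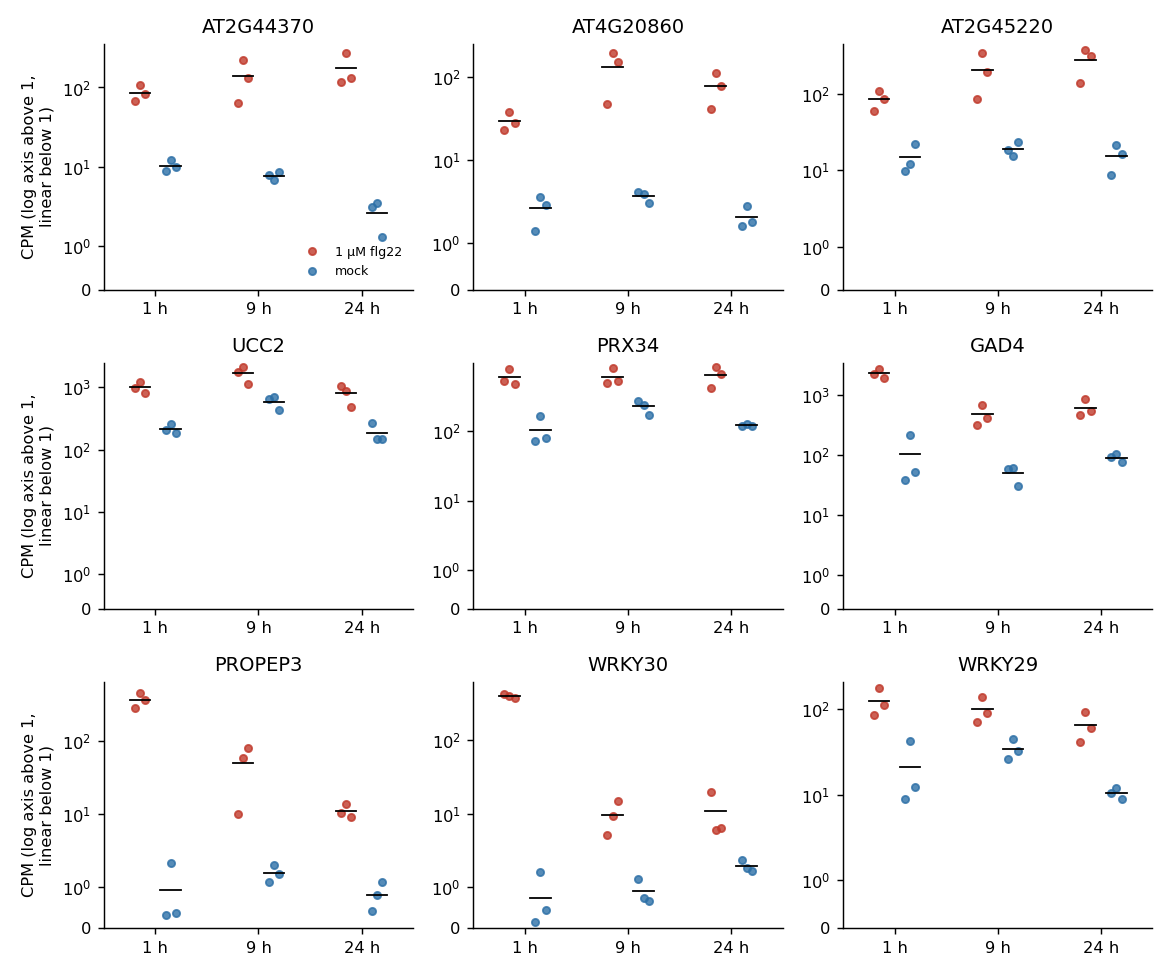
CPM of 9 members in each *E. salsugineum* library at 1, 9 and 24 h, with flg22 (red) left of mock (blue) and the mean of 3 libraries as a line. The axis is logarithmic above 1 CPM and linear below. The upper row shows members whose flg22 level was higher at 24 h than at 1 h, the middle row members with a high mock level, and the lower row *PROPEP3*, *WRKY30* and *WRKY29*, of which the first pair had far less RNA at 24 h than at 1 h.

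Gene lists of defence functions were written by *A. thaliana* locus, so a gene could be tested in *E. salsugineum* only where an ortholog was listed. Most of the ortholog lists hold genes that the study had called responsive in these same libraries, so the tested genes of each list were partly selected for their response. The counts below therefore describe the tested genes only, not the whole list, and cannot be read against the 10.7%, 2.48% and 2.83% of all genes that were upregulated at 1, 9 and 24 h. Of 14 genes for signal peptides, 8 were tested, of which 6, 6 and 4 were upregulated at 1, 9 and 24 h and 3 were members. *PROPEP3* makes the precursor of a Pep peptide, which is sensed as a danger signal and amplifies PTI. It had 289.6, 455 and 375 CPM with flg22 against 0.31, 2.13 and 0.371 CPM with mock at 1 h, 10.1, 59.2 and 80.6 CPM with flg22 against 1.18, 2.05 and 1.53 CPM with mock at 9 h and 10.5, 13.8 and 9.08 CPM with flg22 against 0.411, 0.807 and 1.18 CPM with mock at 24 h. Its flg22 level was far lower at 24 h than at 1 h but still above every mock library (L 7.59, 4.30 and 2.75). *PIP3*, for another PAMP-induced secreted peptide, had L of 5.73, 1.96 and 1.38. *PSK4*, a precursor of the growth peptide phytosulfokine, was steadier, with L of 2.29, 2.19 and 1.58 and 88.2 ± 18.6 CPM with flg22 and 28.8 ± 5.66 CPM with mock (SD, n = 3 each) at 24 h.

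Of 42 receptor and receptor-like kinase genes listed, 23 were tested, of which 20, 5 and 5 were upregulated at 1, 9 and 24 h, and 6 were members. *LYK4*, a LysM receptor kinase of chitin sensing, had 272 ± 37.6 CPM with flg22 and 30.6 ± 28.0 CPM with mock (SD, n = 3 each) at 1 h and 118 ± 50.6 CPM with flg22 and 31.1 ± 9.16 CPM with mock (SD, n = 3 each) at 24 h. *SIF2*, a leucine-rich repeat kinase, had 286 ± 109.7 CPM with flg22 and 93.2 ± 8.72 CPM with mock (SD, n = 3 each) at 24 h. The lectin receptor kinase gene *LECRK55* had L of 3.94, 2.74 and 2.24, the highest at 24 h of the 6. *NILR1*, known in *A. thaliana* as a receptor that senses nematodes, had L of 1.18 at 24 h, *RIPK*, a receptor-like cytoplasmic kinase, 1.11 and the cysteine-rich receptor kinase *CRK21* 1.09, so these sat near the limit.

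Of 70 WRKY genes listed, the 32 with a listed ortholog were tested, of which 27 were upregulated at 1 h, 12 at 9 h and 12 at 24 h, and 8 were members: *WRKY11*, *WRKY22*, *WRKY29*, *WRKY30*, *WRKY33*, *WRKY41*, *WRKY71* and *WRKY75*. WRKY factors bind the W-box of defence promoters, and WRKY22 and WRKY29 act behind the MAP kinase cascade of flg22 signalling in *A. thaliana*. *WRKY29* had 84.0, 176 and 110.0 CPM with flg22 against 8.95, 42.0 and 12.3 CPM with mock at 1 h, 70.7, 137 and 88.5 CPM with flg22 against 26.1, 44.3 and 32.4 CPM with mock at 9 h and 41.5, 91.6 and 59.5 CPM with flg22 against 10.4, 12.0 and 8.81 CPM with mock at 24 h. No flg22 library overlapped mock, and L was as high at 24 h (2.51) as at 1 h (2.49). *WRKY30* had 431, 405 and 371 CPM with flg22 against 0.155, 1.62 and 0.446 CPM with mock at 1 h, the next to highest L of all members at that time (7.86), but 19.7, 6.05 and 6.47 CPM with flg22 against 2.30, 1.83 and 1.65 CPM with mock at 24 h, where replicate 1 was high and replicates 2 and 3 were close together. *WRKY33*, which controls the camalexin pathway in *A. thaliana*, had 841 ± 116 CPM with flg22 and 85.0 ± 80.3 CPM with mock (SD, n = 3 each) at 1 h and 146 ± 43.3 CPM with flg22 and 65.7 ± 22.2 CPM with mock (SD, n = 3 each) at 24 h, with L of 3.29, 1.44 and 1.14. *WRKY11*, a negative regulator of basal resistance in *A. thaliana*, had L of 2.86, 1.52 and 1.46 and *WRKY22* had 2.58, 2.17 and 1.22.

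Other transcription factor genes of stress responses gave 7 members of 27 tested and 39 listed. Among those tested, 21, 16 and 6 were upregulated at 1, 9 and 24 h. *ZAT11*, for a C2H2 zinc finger protein, had 183, 189 and 144 CPM with flg22 against 3.21, 13.8 and 2.67 CPM with mock at 1 h and 33.6, 42.9 and 27.2 CPM with flg22 against 4.32, 4.62 and 4.08 CPM with mock at 24 h, apart from mock in every library (L 4.51, 3.06 and 2.74). *MYB15*, which drives lignin genes after flg22 in *A. thaliana*, had L of 4.28, 3.31 and 1.95, and *MYB51*, a regulator of indole glucosinolate synthesis, had 3.25, 1.85 and 1.77. *NAC042* had 2.51, 1.99 and 2.02 at a low level of 5.71 ± 2.53 CPM with flg22 and 0.657 ± 0.488 CPM with mock (SD, n = 3 each) at 24 h. The members *ERF5* and *ZAT6* had L of 1.15 and 1.10 at 24 h. *ERF98* had the widest gap between L at 1 h and L at 24 h among the 7 (6.74 and 1.37), with 149.6, 146 and 136 CPM with flg22 against 0.31, 0.721 and 0.0371 CPM with mock at 1 h and 3.34, 1.46 and 0.601 CPM with flg22 against 0.0823, 0 and 0.169 CPM with mock at 24 h. At these low levels adding 1 CPM shrinks L, most of all at 24 h, so the gap in L is partly one of level. VQ motif proteins, many of which bind WRKY factors, were encoded by 7 members, a family counted after the values had been seen. L at 24 h ranged from 1.10 (AT5G46780) to 2.44 (AT1G68450) among them.

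Of 28 genes for MAP kinase cascades, phosphatases and calcium signalling 21 were tested, of which 17, 7 and 4 were upregulated at 1, 9 and 24 h, and 4 were members. *PP2C5* and *AP2C2* encode type 2C phosphatases, a class that inactivates MAP kinases. They had L of 4.52, 1.90 and 1.79 and of 5.22, 1.83 and 1.44. *CML42*, a calmodulin-like calcium sensor, had 499 ± 61.0 CPM with flg22 and 22.5 ± 7.08 CPM with mock (SD, n = 3 each) at 1 h and 41.9 ± 11.1 CPM with flg22 and 13.3 ± 2.56 CPM with mock (SD, n = 3 each) at 24 h, and *MAPKKK15* had L of 1.38 at 24 h. Of 14 ubiquitin ligase genes 11 were tested, of which 9, 8 and 6 were upregulated and 6 were members. The 3 members *PUB22*, *PUB23* and *PUB24* form a group of U-box ligases that dampen PTI in *A. thaliana*. *PUB23* had 394 ± 71.4 CPM with flg22 and 35.1 ± 22.7 CPM with mock (SD, n = 3 each) at 1 h and 125 ± 29.5 CPM with flg22 and 35.1 ± 6.84 CPM with mock (SD, n = 3 each) at 24 h (L 3.45, 1.77 and 1.8), *PUB22* had L of 2.92, 1.37 and 1.44 and *PUB24* 4.99, 1.39 and 1.40. *PUB20* had the highest L at 24 h of the ligases, 2.1, while the RING ligase genes *ATL31* and *ATL6*, which act in carbon and nitrogen responses, had 1.48 and 1.02.

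Of 26 genes for secretion, the plasma membrane and transport, the 21 with a listed ortholog were tested, and 21 were upregulated at 1 h, 11 at 9 h and 8 at 24 h, and 9 were members. *MLO12* and *MLO6* encode membrane proteins that powdery mildew fungi need to enter the cell. *MLO12* had 406 ± 144 CPM with flg22 and 30.6 ± 24.0 CPM with mock (SD, n = 3 each) at 1 h and 218 ± 75.1 CPM with flg22 and 44.0 ± 5.59 CPM with mock (SD, n = 3 each) at 24 h (L 3.69, 2.92 and 2.28), and *MLO6* had L of 5.29, 1.91 and 1.33. The NDR1/HIN1-like genes *NHL6*, *NHL10* and *NHL3* had L at 24 h of 2.20, 1.66 and 1.29. *SYP122*, a syntaxin of the plasma membrane, *EXO70H4*, a subunit of the exocyst, *STP13*, a hexose importer, and *ABCG40*, an ABC transporter, had 1.28, 1.26, 1.76 and 1.14.

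Antimicrobial and cell wall proteins were the list with the most members, 13 of 18 genes tested (28 listed). Among those tested, 15, 12 and 15 were upregulated at 1, 9 and 24 h. It held peroxidases, chitinases and berberine family oxidases. The chitinase gene AT1G02360 had 521, 634 and 493 CPM with flg22 against 16.2, 27.9 and 23.6 CPM with mock at 1 h and 237, 269 and 204 CPM with flg22 against 22.3, 22.9 and 20.4 CPM with mock at 24 h, apart from mock throughout (L 4.55, 3.45 and 3.38). *PRX37* had 554, 841 and 630.0 CPM with flg22 against 4.45, 36.7 and 4.94 CPM with mock at 1 h, 209.5, 377 and 154 CPM with flg22 against 116, 164 and 49.9 CPM with mock at 9 h and 116, 158 and 97.0 CPM with flg22 against 10.7, 13.4 and 12.6 CPM with mock at 24 h. Its flg22 and mock libraries came closest at 9 h, where mock was high, so that L was 1.16 between 5.37 and 3.23. There its lowest flg22 library (154 CPM) lay below its highest mock library (164 CPM). *PER4* had 146, 133 and 100.5 CPM with flg22 against 0, 0.635 and 0.223 CPM with mock at 1 h and 4.75, 12.2 and 5.58 CPM with flg22 against 0, 0.0367 and 0.101 CPM with mock at 24 h. Mock held at most 3 reads of *PER4* in each library at 24 h, so no fold is given there. *BBE8* had 688 ± 31.9 CPM with flg22 and 51.6 ± 8.54 CPM with mock (SD, n = 3 each) at 1 h and 398 ± 129.8 CPM with flg22 and 60.9 ± 12.5 CPM with mock (SD, n = 3 each) at 24 h. Neighbouring berberine genes such as *BBE8*, *BBE10* and *BBE11* resemble each other, and reads that aligned to more than one place were not counted, so their levels are uncertain. *CHIV*, a class IV chitinase, had L of 1.79 at 24 h, *PGIP1*, an inhibitor of fungal polygalacturonases, 1.53, the metalloproteinase gene *3-MMP* 1.44 and the berberine family gene AT5G44390 1.17.

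Lists on hormones and secondary metabolism held few members. Of 17 genes for salicylic acid and N-hydroxypipecolic acid 11 were tested, of which 7 were upregulated at 1 h, 0 at 9 h and 0 at 24 h, and none was a member. Of 19 genes for jasmonate, oxylipins and ethylene 13 were tested, of which 10, 4 and 1 were upregulated, and the member was *DOX1*, an alpha-dioxygenase of fatty acids, with L of 2.98, 1.03 and 2.01. The phenylpropanoid list (9 of 11 genes tested, 6, 1 and 3 upregulated) held *CCR2*, a cinnamoyl-CoA reductase of lignin synthesis, with 467 ± 129 CPM with flg22 and 9.00 ± 7.58 CPM with mock (SD, n = 3 each) at 1 h and 75.6 ± 30.7 CPM with flg22 and 11.6 ± 2.00 CPM with mock (SD, n = 3 each) at 24 h. The list of indole glucosinolate and camalexin enzymes (6 of 16 genes tested, 3, 4 and 3 upregulated) held *SOT16*, a sulfotransferase of glucosinolate synthesis, with L of 2.23, 1.42 and 1.2. Over all genes tested the median log2 fold change was −0.08, −0.01 and −0.05 at 1, 9 and 24 h. It was 2.88, 1.79 and 2.24 over the 18 tested antimicrobial genes and 1.39, −0.03 and −0.16 over the 11 tested salicylic acid genes, values that the selection of listed orthologs on response in part fixes. The rule for L enters them too, since 13 of these antimicrobial genes and 0 of these salicylic acid genes were members. The gene lists were also chosen with earlier results of these data known, so nothing is read from the gap.

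The promoters of the *A. thaliana* orthologs are shown for 5 of these members, since the sequence of *E. salsugineum* was not used here. They are the 300 bases before the annotated start in the RefSeq annotation of build TAIR10.1, written 5′ to 3′ on the strand of the gene. Capitals mark the W-box core TTGAC or its reverse complement GTCAA, the letters that WRKY factors bind. *PROPEP3* and *WRKY29* were chosen for the many matches, *ZAT11* and AT2G44370 as high members of 2 kinds of profile, and *PER4* because its window held none.
PROPEP3 (chr5:25939262-25939561, plus strand): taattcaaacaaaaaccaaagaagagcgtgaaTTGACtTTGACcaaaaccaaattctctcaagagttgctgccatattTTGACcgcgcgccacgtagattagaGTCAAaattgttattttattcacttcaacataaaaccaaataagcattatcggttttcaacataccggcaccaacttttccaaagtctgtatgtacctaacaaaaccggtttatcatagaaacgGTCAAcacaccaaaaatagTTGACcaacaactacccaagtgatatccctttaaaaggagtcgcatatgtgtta
WRKY29 (chr4:12291332-12291631, plus strand): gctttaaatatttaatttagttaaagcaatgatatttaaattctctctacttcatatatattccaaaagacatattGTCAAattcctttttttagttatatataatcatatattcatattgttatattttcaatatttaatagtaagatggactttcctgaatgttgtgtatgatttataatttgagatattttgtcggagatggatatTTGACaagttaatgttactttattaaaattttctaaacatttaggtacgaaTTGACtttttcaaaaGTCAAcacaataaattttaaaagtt
ZAT11 (chr2:15705985-15706284, plus strand): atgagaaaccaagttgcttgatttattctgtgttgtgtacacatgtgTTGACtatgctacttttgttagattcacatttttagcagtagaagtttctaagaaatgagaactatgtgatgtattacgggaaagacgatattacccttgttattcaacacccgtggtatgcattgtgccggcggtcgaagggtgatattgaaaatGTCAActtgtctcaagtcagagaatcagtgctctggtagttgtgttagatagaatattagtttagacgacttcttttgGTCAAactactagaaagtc
AT2G44370 (chr2:18323122-18323421, minus strand): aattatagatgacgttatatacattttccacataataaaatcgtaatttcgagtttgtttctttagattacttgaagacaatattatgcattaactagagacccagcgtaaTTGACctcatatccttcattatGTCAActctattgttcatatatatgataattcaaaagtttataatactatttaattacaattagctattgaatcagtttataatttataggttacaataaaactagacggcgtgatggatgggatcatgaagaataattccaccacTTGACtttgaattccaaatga
PER4 (chr1:4975706-4976005, minus strand): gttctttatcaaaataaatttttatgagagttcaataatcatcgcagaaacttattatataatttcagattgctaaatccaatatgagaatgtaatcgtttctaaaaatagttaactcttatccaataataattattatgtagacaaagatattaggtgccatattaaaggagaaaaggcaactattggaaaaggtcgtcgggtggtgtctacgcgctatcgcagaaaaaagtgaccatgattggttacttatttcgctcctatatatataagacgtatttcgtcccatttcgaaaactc

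The window of *PROPEP3* held 6 matches, that of *WRKY29* 4, those of *ZAT11* and AT2G44370 3 each and that of *PER4* 0. Of the 158 members with a listed ortholog, 118 (74.7%) had the letters TTGAC on either strand of this window and 79 (50.0%) had them at least 2 times. In the 14 orthologs from a list made without regard to response, they were in 9 (64.3%), and at least 2 times in 7. The shares were 68.2% and 33.7% for the orthologs of 365 other genes with L of at least 2 at 1 h, and 50.4% and 17.9% for all 27443 nuclear protein-coding genes. The letters CACGTG, the G-box, were in the windows of 7.59% of member orthologs, 8.77% of the other orthologs and 7.09% of all genes, and GCCGCC, the GCC-box, in 5.06%, 2.47% and 2.26%. A match is only a run of letters, and binding was not measured.

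The orthologs bear on whether the members also responded in plants that the rule did not use. They were taken from the study's lists of 1:1 orthologs. Only 14 of the 158 came from a list that took no account of any response, of which the first 1709 genes, at the start of chromosome 1, were at hand. Another 133 were found among genes that the study had called responsive in all of the species and 10 among those responsive at 1 h. A further 1 was found in its clusters of responsive genes with a species-specific expression signature. All of these lists came from these same libraries. Counts over the 158 are therefore not independent evidence of direction, and the counts over the 14 stand beside them.

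At 1 h nearly all member orthologs were upregulated in every genotype. They numbered 146 of 154 tested in *A. thaliana* Col-0, where 9.64% of all genes were upregulated, 150 of 156 in *C. rubella* (13.8%) and 147 of 153 in *C. hirsuta* (10.3%). Of the 14 unselected orthologs, 12 of 12 tested, 13 of 14 and 13 of 14 were upregulated in the 3 species. The median log2 fold changes of the member orthologs were 3.67, 4.89 and 3.57. In the further accessions the counts were 148 of 154 in Can-0 (11.3% of all genes), 146 of 152 in Gy-0 (10.5%), 137 of 152 in Kn-0 (7.57%), 147 of 151 in Kon (12.9%) and 144 of 150 in No-0 (13.6%), with 13 of 13 unselected orthologs in each. In all, 136 members were upregulated at 1 h in the 3 other species, and 134 in all 5 accessions, among them 11 and 13 of the 14 unselected. The shares of all genes upregulated in every 1 of these genotypes were not counted.

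At 9 h and 24 h the counts of upregulated member orthologs were not alike in the 3 species, a difference that was not tested. In Col-0 139 of 154 were upregulated at 9 h (6.51% of all genes) and 136 at 24 h (6.06%), and 10 and 12 of the 12 unselected. In *C. rubella* 70 of 156 were upregulated at 9 h (1.65% of all genes) and 141 at 24 h (6.31%), and 4 and 13 of the 14 unselected. In *C. hirsuta* 99 of 153 were upregulated at 9 h (3.91% of all genes) and 35 at 24 h (1.28%), and 5 and 2 of the 14 unselected. By gene, 126 were upregulated at all 3 times in Col-0, 70 in *C. rubella* and 32 in *C. hirsuta*, and 10, 4 and 1 of the 14 unselected. A further 70 in *C. rubella* were upregulated at 1 h and 24 h but not at 9 h, a pattern found in 7 in Col-0 and 2 in *C. hirsuta*, and 66 in *C. hirsuta* at 1 h and 9 h but not at 24 h, found in 9 in Col-0 and 0 in *C. rubella*. Among the unselected, 9 showed the first of these patterns in *C. rubella* and 4 the other in *C. hirsuta*. The shares of all genes with these patterns were not counted. For all 3 times they can be no more than 6.06% in Col-0, 1.65% in *C. rubella* and 1.28% in *C. hirsuta*, the lowest shares at a single time. Median log2 fold changes were 2.43 and 2.27 at 9 h and 24 h in Col-0, 1.57 and 2.65 in *C. rubella*, and 1.85 and 1.27 in *C. hirsuta*. In *C. hirsuta* 151 of the 153 orthologs had a log2 fold change above 0 at 24 h, and 118 had an unadjusted p below 0.05. The median log2 fold change over all genes there was 0.003, and the share of all genes at that p was not counted. Of 352 orthologs of the other genes with L of at least 2 at 1 h, 320 were above 0 and 199 had such a p. Of the 14 unselected member orthologs, 14 were above 0 and 7 had such a p. At 9 h the count in *C. rubella* was 69, 0 and 19 and that in *C. hirsuta* 100, 30 and 19 when replicate 1, 2 or 3 was left out. At 24 h the count in *C. hirsuta* was 14, 7 and 1 in the same order. DESeq2 called 69 in *C. hirsuta* at 24 h, and 522 of all genes. Without replicate 1, 2 or 3, calls over all genes in *C. rubella* at 9 h went from 325 to 292, 1 and 70. In *C. hirsuta* they went from 815 to 658, 222 and 125 at 9 h and from 268 to 84, 25 and 14 at 24 h.

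**Figure D4:**
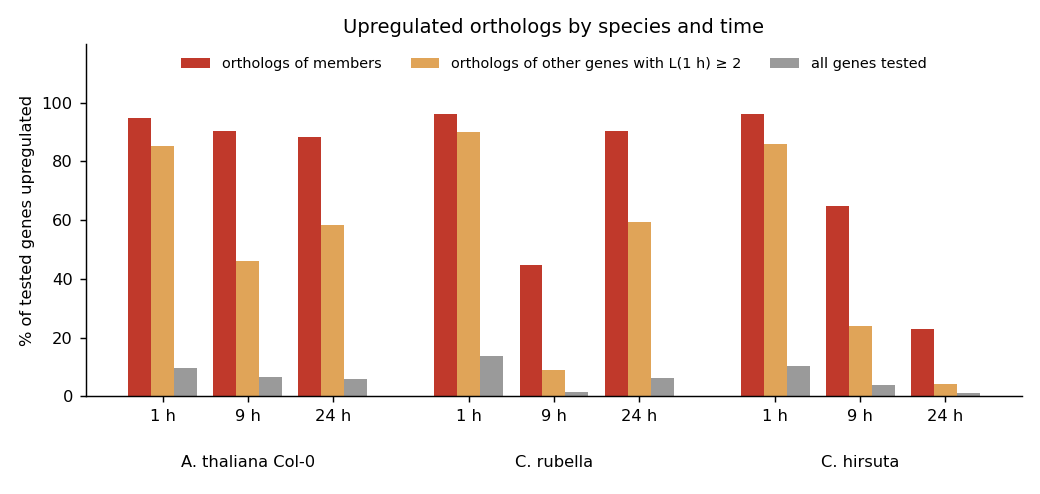
Share of tested genes that were upregulated at 1, 9 and 24 h in *A. thaliana* Col-0, *C. rubella* and *C. hirsuta*, for orthologs of members (red), orthologs of the other genes with L of at least 2 at 1 h (orange) and all genes (grey). At 24 h 88.3% of member orthologs were upregulated in Col-0, 90.4% in *C. rubella* and 22.9% in *C. hirsuta*.

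The other 365 orthologs of genes that were high in *E. salsugineum* at 1 h without meeting the late conditions were counted in the same way. In Col-0 304, 165 and 209 of 357 were upregulated at 1, 9 and 24 h, in *C. rubella* 321, 32 and 212 of 356, and in *C. hirsuta* 302, 84 and 15 of 352. As shares at 24 h this is 58.5%, 59.6% and 4.26%, beside 88.3%, 90.4% and 22.9% of member orthologs. In the unselected part it is 23 of 46 in Col-0, 21 of 45 in *C. rubella* and 2 of 44 in *C. hirsuta*, beside 12 of 12, 13 of 14 and 2 of 14. These shares are given as a description without a test. Applied to each species in turn, the rule for L was met by the orthologs of 101 members in Col-0, 91 in *C. rubella* and 73 in *C. hirsuta* of the 158, by 8, 4 and 4 of the 14 unselected, and by those of 91, 50 and 45 of the 365 other genes. Over all genes with a row it was met by 422 of 27416 in Col-0, 321 of 26521 in *C. rubella* and 276 of 29458 in *C. hirsuta*.

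Between 1 h and 24 h the response of many member orthologs was smaller, as tested by the interaction of treatment and time. The flg22 effect was smaller at 24 h than at 1 h in 57 of 154 in Col-0 (2.79% of all genes), 69 of 156 in *C. rubella* (5.82%) and 46 of 153 in *C. hirsuta* (1.82%), and larger in 0 in each, with 4 in Col-0 larger at an unadjusted p below 0.05. Among the unselected the counts were 5 of 12, 6 of 14 and 6 of 14. The median change was −1.44, −2.01 and −2.14 on the log2 scale. The other orthologs gave 132 of 357, 217 of 356 and 97 of 352. As shares this is 37.0%, 61.0% and 27.6%, beside 37.0%, 44.2% and 30.1% of member orthologs. A smaller effect at 24 h was thus not particular to the members. Leaving out 1 replicate moved these counts by more than 1.5 times: in Col-0 they were 20 without replicate 1 and 22 without replicate 3, in *C. rubella* 39 and 34 without replicates 2 and 3, and in *C. hirsuta* 96 without replicate 1 and 0 without replicate 2 or 3.

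**Figure D5:**
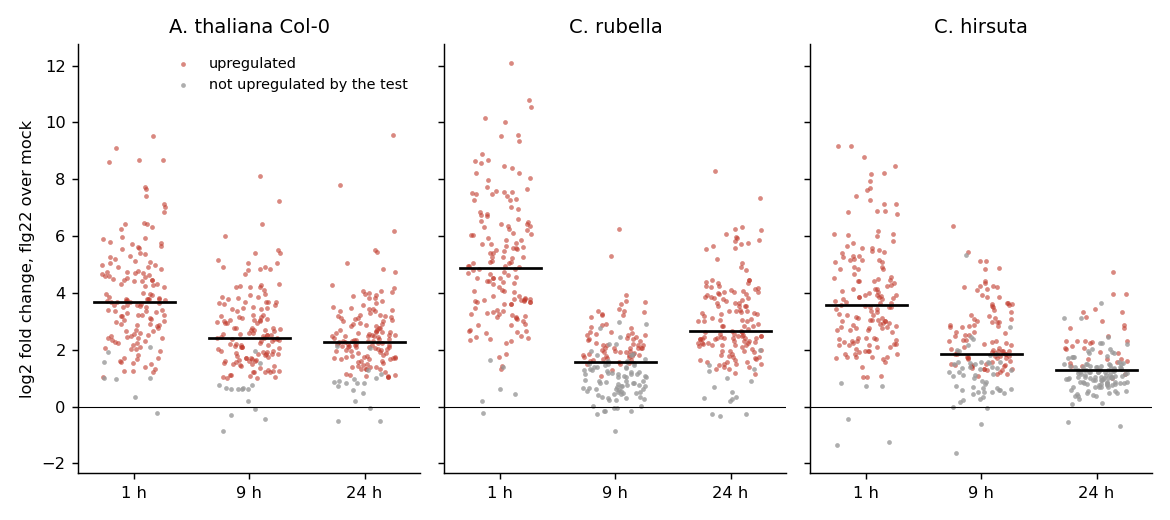
Log2 fold change of flg22 over mock for each tested ortholog of a member at 1, 9 and 24 h in *A. thaliana* Col-0, *C. rubella* and *C. hirsuta*. Each point is a gene, red where it was upregulated and grey where it was not, and the bar is the median, which at 24 h was 2.27, 2.65 and 1.27.

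In all 3 other species, 18 members (1 of the 14 unselected) were upregulated at 1, 9 and 24 h: AT2G44370, AT1G36622, AT2G45220, *PER4*, AT2G38870, *ZAT11*, *BBE8*, *PRX34*, *MLO12*, *BBE7*, *LECRK55*, AT5G48540, *UCC2*, *MYB15*, *CHIV*, AT5G61890, *LECRKA4.2* and AT4G37900. The share of all genes with this pattern was not counted. *PER4* is the unselected one. In Col-0 at 24 h its ortholog had 123, 44.0 and 60.9 CPM with flg22 against 0.655, 1.88 and 0.593 CPM with mock (log2 fold change 6.18, SE 0.48, adjusted p = 1.33e-07). In *C. rubella* it had 97.1, 143 and 59.5 CPM with flg22 against 0.685, 0.747 and 0.371 CPM with mock (log2 fold change 7.34, SE 0.59, adjusted p = 2.44e-06), and in *C. hirsuta* 334, 300.4 and 188 CPM with flg22 against 19.2, 17.9 and 16.9 CPM with mock (log2 fold change 3.97, SE 0.52, adjusted p = 0.00066). Groups were far apart in each species, although mock in *C. hirsuta* was well above that of the other species and the call there was lost without replicate 3. The pectin methylesterase gene AT2G45220 had 275, 104 and 95.3 CPM with flg22 against 7.02, 9.67 and 8.89 CPM with mock at 24 h in Col-0 (log2 fold change 4.07, SE 0.45, adjusted p = 4.17e-06), 563, 530.3 and 206 CPM with flg22 against 55.1, 45.9 and 21.8 CPM with mock in *C. rubella* (log2 fold change 3.36, SE 0.27, adjusted p = 2.44e-06) and 585, 340.3 and 244 CPM with flg22 against 65.5, 32.6 and 20.9 CPM with mock in *C. hirsuta* (log2 fold change 3.42, SE 0.48, adjusted p = 0.00107). Its flg22 level was higher at 24 h than at 1 h in all 4 species, but its effect did not pass the interaction test in any of the 3 tested (log2 change 1.89, SE 0.59, adjusted p = 0.0538 in Col-0). Without replicate 3 its call in *C. hirsuta* was lost as well.

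AT2G44370, the member with the highest L at 24 h, was upregulated at every time in the other species, with log2 fold changes of 3.38, 4.91 and 3.18 in Col-0, 4.80, 2.38 and 3.00 in *C. rubella*, and 3.25, 2.48 and 2.75 in *C. hirsuta*. In Col-0 at 24 h it had 201, 115 and 187 CPM with flg22 against 10.9, 43.6 and 10 CPM with mock, so that replicate 2 of mock was raised but below every flg22 library. The protease inhibitor gene AT2G38870 had log2 fold changes at 24 h of 2.83 (Col-0), 3.66 (*C. rubella*) and 3.31 (*C. hirsuta*), the last with an SE of 0.42 and an adjusted p of 0.000534 (edgeR). The call in *C. hirsuta* was lost without the replicate block and without replicate 1 or 3. *BBE8* had 318, 149 and 163 CPM with flg22 against 21.7, 44.7 and 27.6 CPM with mock in Col-0 at 24 h, 90.6, 80.1 and 29.3 CPM with flg22 against 16.6, 9.16 and 8.93 CPM with mock in *C. rubella* and 199.7, 103 and 104 CPM with flg22 against 22.7, 9.42 and 10.8 CPM with mock in *C. hirsuta*, with no overlap.

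By gene group the counts at 24 h were as follows in Col-0, *C. rubella* and *C. hirsuta*, again mostly over orthologs listed for their response and beside 6.06%, 6.31% and 1.28% of all genes. Of the 13 members for antimicrobial and cell wall proteins, 11, 12 and 8 were upregulated. Of the 8 WRKY members 7, 8 and 1 were, and the 1 in *C. hirsuta* was *WRKY29*, which had 89.7, 32.8 and 26.0 CPM with flg22 against 23.3, 13.8 and 10.5 CPM with mock (log2 fold change 1.67, SE 0.32, adjusted p = 0.00863). *WRKY30* had 52.8, 12.5 and 2.5 CPM with flg22 against 10.3, 27.5 and 2.39 CPM with mock there, with wide overlap, but 34.0, 31.0 and 29.8 CPM with flg22 against 2.59, 1.51 and 2.16 CPM with mock in Col-0 (log2 fold change 3.99, SE 0.28, adjusted p = 5.22e-08). Of the 7 other transcription factor members 7, 7 and 3 were upregulated, of the 6 receptor members 5, 6 and 1, of the 9 for secretion, membrane and transport 9, 9 and 2, and of the 4 for kinase and calcium signalling 4, 3 and 0. The 6 ubiquitin ligase members gave 6, 6 and 0 of 5 tested in *C. hirsuta*, and the 7 VQ motif members 6, 7 and 2. Of the 3 peptide members 3, 3 and 1 were upregulated. *PROPEP3* had 34.5, 25.8 and 29.9 CPM with flg22 against 1.06, 1.51 and 0.907 CPM with mock in Col-0 at 24 h (log2 fold change 4.74, SE 0.30, adjusted p = 3.66e-08), 24.9, 12.2 and 10.4 CPM with flg22 against 0.294, 0.157 and 0.27 CPM with mock in *C. rubella* (log2 fold change 6.20, SE 0.95, adjusted p = 0.000235) and 27.9, 17.4 and 6.56 CPM with flg22 against 3.23, 8.22 and 1.56 CPM with mock in *C. hirsuta* (log2 fold change 2.21, SE 0.56, adjusted p = 0.0326). The lowest flg22 library lay below the highest mock library in *C. hirsuta* alone, and the effect was smaller at 24 h than at 1 h in Col-0 (log2 change −2.28, SE 0.44, adjusted p = 0.00327) and *C. hirsuta* (log2 change −4.58, SE 0.85, adjusted p = 0.0062).

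A few members of *E. salsugineum* were not called late in the other species. The orthologs of 6 members were not upregulated at 24 h in any species where they were tested: AT2G23960, AT5G57887, AT5G22545, AT1G19390, AT3G13650 and AT1G68390. At 24 h 6.06%, 6.31% and 1.28% of all genes were upregulated in Col-0, *C. rubella* and *C. hirsuta*, so most genes were not. AT5G22545 was tested in *C. hirsuta* alone and AT1G19390 in *C. rubella* and *C. hirsuta*. AT5G57887, of unknown function, was also not upregulated at 1 h in any, with log2 fold changes of 0.96 (SE 0.80) in Col-0, 0.20 (SE 0.30) in *C. rubella* and −0.45 (SE 0.20) in *C. hirsuta*. In *E. salsugineum* it had 118, 163 and 160.5 CPM with flg22 against 2.79, 3.95 and 7.06 CPM with mock at 1 h and 9.93, 14.9 and 7.95 CPM with flg22 against 1.11, 3.60 and 2.97 CPM with mock at 24 h. AT2G23960, with L of 4.17 at 24 h, had log2 fold changes of −0.50 (SE 0.60) in Col-0 and 0.29 (SE 0.93) in *C. rubella* at 24 h and was not tested in *C. hirsuta*. The dirigent-like gene AT3G13650, of a family that guides the coupling of phenols, was upregulated at 1 h in all 3 species and had −0.03 (SE 0.24), 0.35 (SE 0.31) and 0.14 (SE 0.33) at 24 h, with L of 1.29 in *E. salsugineum*. AT4G20860, the second highest member at 24 h, was upregulated at 24 h in Col-0 with 710.3, 403 and 387 CPM with flg22 against 96.1, 99.9 and 122 CPM with mock (log2 fold change 2.21, SE 0.23, adjusted p = 2.69e-06). It was at a low level in *C. rubella*, with 1.99, 1.81 and 1.12 CPM with flg22 against 1.04, 0.669 and 1.21 CPM with mock (log2 fold change 0.70, SE 0.42, adjusted p = 0.245). AT3G19010 likewise had log2 fold changes of 1.33 (SE 0.15) in Col-0 and −0.27 (SE 0.32) in *C. rubella* at 24 h. The difference between these species was not tested.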

How the data were processed

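Single-end, strand-specific reads of poly(A) RNA were base-called with CASAVA 1.8.2, trimmed with cutadapt 1.5, aligned with TopHat2 to each species' genome and counted per gene with HTSeq 0.6.0, per the labels and the study's methods. The deposited values are raw whole-number counts that the authors made per gene, 1 column per library and 1 table per genotype. Reads in the summary rows (no gene, ambiguous, not unique), 18.0% to 38.8% of all rows in *E. salsugineum* of which not uniquely aligned reads made up 12.0% to 33.4%, were left out of library sizes and tests. CPM was computed from the remaining rows with a pseudocount of 1 for L.

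Counts were tested in edgeR 4.0.16 (limma 3.58.1, R 4.3.3) with TMM scaling, the quasi-likelihood test and Benjamini-Hochberg adjustment, 1 fit per genotype over genes with a mean count of at least 10, with the replicate number as a block. A gene was called at an adjusted p below 0.01 and an absolute log2 fold change above 1. The change of effect between 1 h and 24 h was an interaction term with the same limits. The block follows the study's design of independent experiments. Same-numbered libraries deviated together in 9 of 9 pairs in *E. salsugineum* (correlations 0.41 to 0.73), and in 46 of 51 pairs over all genotypes the correlation was over 0.1 (lowest −0.08). P-values rest on the spread left among libraries of the 3 experiments after the block has taken out shifts shared by same-numbered libraries.

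The members and gene lists were chosen with earlier results of these data known. Named genes are the 8 highest by L at 24 h, the 8 highest by flg22 CPM at 24 h, up to 5 per list by flg22 CPM at 24 h, the neighbours of the limits, the orthologs most and least responsive at 24 h over the species, and marker genes, and any other gene named was picked after its values were seen. Ortholog IDs came from the study's lists, held in part, and only IDs were taken from them. *A. thaliana* names and sequence came from RefSeq (build TAIR10.1, which was not compared with the build behind the counts, since only locus tags were matched). Alternatives were DESeq2 1.42.0, limma-voom, other scalings, no count minimum, no replicate block, other pseudocounts and leaving out each replicate. The fits were tested on simulated data with 200 changed genes. The 24 h test recovered 91.5% of them in Col-0, 90.0% in *C. rubella* and 81.5% in *C. hirsuta*. The interaction test recovered 83.0%, 67.5% and 65.0%, so sensitivity was not equal among the species whose counts are set side by side. Figures were drawn with matplotlib 3.10.9.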

Additional observations from a re-analysis of the deposited data

Results flagged for a closer look

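The effect of flg22 differed between 1 h and 24 h, by the interaction test in edgeR with Benjamini-Hochberg adjustment, in 57 member orthologs in *A. thaliana* Col-0, 69 in *C. rubella* and 46 in *C. hirsuta*, in each of them as a smaller effect at 24 h, beside 2.79%, 5.82% and 1.82% of all genes. For orthologs of the other genes with L of at least 2 at 1 h, the shares were 37.0%, 61.0% and 27.6%. Those of the member orthologs were 37.0%, 44.2% and 30.1%, so the smaller effect was not particular to them. Most member orthologs were listed by the study for their response in the same libraries. The counts without replicate 1, 2 or 3 were 20, 38 and 22 in Col-0, 51, 39 and 34 in *C. rubella*, and 96, 0 and 0 in *C. hirsuta*.

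In 5 cases every replicate moved one way in one genotype and the opposite way in another, and this difference between genotypes was not tested. *CRK21*, a cysteine-rich receptor kinase gene, was upregulated at 1 h in *C. rubella*, with 24.4, 37.8 and 19.8 CPM with flg22, against 0.413, 1.5 and 0.715 CPM with mock (log2 fold change 5.27). It was downregulated in *C. hirsuta*, with 1.71, 1.62 and 1.07 CPM with flg22, against 4.81, 2.83 and 3.66 CPM with mock (−1.26, adjusted p = 0.00854, edgeR), in the accession Kon, with 2.23, 1.3 and 1.52 CPM against 7.61, 5.49 and 3.58 CPM (−1.27, adjusted p = 0.00488, edgeR), and in No-0, with 5.14, 4.27 and 2.75 CPM against 16.2, 11.1 and 11.3 CPM (−1.23, adjusted p = 3.05e-06, edgeR). The call in *C. hirsuta* was lost without any 1 replicate and the call in Kon without replicate 1 or 2. *PMT6*, a polyol transporter gene, had 13.3, 10.5 and 10.7 CPM with flg22 at 1 h in *C. hirsuta*, against 38.0, 30.4 and 27.6 CPM with mock (−1.35, adjusted p = 0.00197, edgeR), and was upregulated in Col-0 (2.07) and *C. rubella* (3.24). Its call in *C. hirsuta* was lost without replicate 2 or 3. AT1G11925 had 0.638, 1.46 and 2.1 CPM with flg22 at 9 h in *C. hirsuta*, against 4.07, 4.11 and 4.88 CPM with mock (−1.65, adjusted p = 0.00869, edgeR), a call lost without any 1 replicate, and was upregulated in Col-0 at 9 h (3.60).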

How the results depend on the processing

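With no replicate block, 124 and 118 members were called in *E. salsugineum* at 9 h and 24 h and 32 orthologs had a smaller effect at 24 h in Col-0. Fitted without the replicate block, the other counts stayed within 1.5 times. DESeq2 called 69 orthologs in *C. hirsuta* at 24 h and 102 with a smaller effect. The rule took 201 to 220 genes when 1 replicate was left out. Leaving out 1 replicate gave 214 to 217, 69 to 170 and 109 to 136 calls in *E. salsugineum* at 1, 9 and 24 h. The calls among orthologs were 138 to 147, 117 to 135 and 107 to 133 in Col-0, 142 to 147, 0 to 69 and 98 to 134 in *C. rubella*, and 122 to 142, 19 to 100 and 1 to 14 in *C. hirsuta*, with 20 to 38, 34 to 51 and 0 to 96 smaller effects. In the accessions they were 142 to 151 in Can-0, 144 to 145 in Gy-0, 140 to 142 in Kn-0, 147 in Kon and 143 to 146 in No-0. Calls over all genes also moved when 1 replicate was left out, as at 9 h in *C. rubella*, from 325 to 1 without replicate 2. Among log2 fold changes of orthologs at 24 h, 5 changed sign without replicate 2, none of them called: over the replicates left out, AT3G13650 ranged from −0.13 to 0.076 in Col-0 and from −0.020 to 0.31 in *C. hirsuta*, AT5G57887 from −0.68 to 2.45 in Col-0 and from −0.43 to 0.14 in *C. rubella*, and AT1G68390 from −0.12 to 0.74 in *C. rubella*. Of 360 values of named genes under an alternative, 325 kept their direction and side of the threshold and 26 were no longer called. The causes were not tested.

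The limits of these data are the 3 replicates a group, the choice of members and of most orthologs on these same libraries, and single accessions for 3 species. TMM scaling in place of total reads gave 254 genes under the rule, with all 217 kept, and 158 of the 217 were chosen whichever replicate was left out.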

Other observations

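Among the 217 members, 18 of those with a listed ortholog were uncharacterized by their product name. The product names of 15 mentioned a kinase and those of 6 the berberine family, families counted after the values were seen. A product name that mentions a kinase does not show that the protein is one. The shares of all genes with such names were not counted. The 7 members for VQ motif proteins were upregulated at 1, 9 and 24 h in 6, 6 and 6 orthologs in *A. thaliana* Col-0, in 7, 1 and 7 in *C. rubella* and in 7, 5 and 2 in *C. hirsuta*. The shares of all genes upregulated at these times were 9.64%, 6.51% and 6.06%, 13.8%, 1.65% and 6.31%, and 10.3%, 3.91% and 1.28% in the 3 species, and most listed orthologs were chosen by the study for their response in these libraries, so these counts are not independent evidence of direction. AT4G18540 had the highest L of all members at 1 h, 8.71, with L of 3.53 at 9 h and 2.76 at 24 h.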
